A study of Homo sapiens with 19 samples.

Results

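The genes described are 10 immediate early genes of the AP-1, EGR and NR4A families: FOS, FOSL1, FOSL2, JUN, JUNB, EGR1, ATF3, IER3, NR4A1 and NR4A3. They were taken by gene symbol, each symbol had 1 row in all 3 expression tables of the study, and they are 10 of the 30710 gene identifiers listed in at least 1 table, 17886 of which are in all 3. The data are 19 RNA-seq libraries of the breast cancer cell line MDA-MB-231, a widely used human line with mesenchymal features. The culture table compares 16 h spheres (n = 2) and 5 d spheres (n = 2) with adherent cells (n = 2). The siSCIRT table compares siSCIRT 1 (n = 3) and siSCIRT 2 (n = 3) with a control siRNA, siNC (n = 3), and the siEZH2 table compares siEZH2 (n = 2) with a siNC of its own (n = 2). SCIRT is a long noncoding RNA, and EZH2 is the histone methyltransferase of Polycomb repressive complex 2.

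All groups are the same cell line, and the labels name no engineered allele. Spheres floated in non-adherent plates in DMEM/F12 with B27, EGF at 20 ng/ml and FGF at 20 ng/ml. The siRNA groups, siNC included, are all labelled as spheres, and were reverse transfected and then kept in that medium for 48 h. Adherent cells grew attached in DMEM with 10% fetal calf serum. Attachment, base medium, serum, B27 and added growth factors therefore differ at once between spheres and adherent cells, and their effects cannot be told apart. The labels do not say whether libraries of a group came from separate cultures, so p-values here reflect library-to-library spread alone, which may be technical. That spread was drawn partly from other genes of like abundance, so a p-value does not measure a gene's own spread alone. For siEZH2 against siNC, the standard error of the log2 change was 0.12 for each of EGR1, FOSL1, FOSL2, JUN and JUNB. In bulk RNA, fewer cells with a transcript and less of it per cell cannot be told apart.

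Immediate early genes are switched on within minutes of a stimulus such as a growth factor, serum or stress, without new protein synthesis, and most of their transcripts decay quickly. FOS, FOSL1 and FOSL2 proteins pair with JUN and JUNB, and ATF3 can pair with JUN proteins, in the dimeric transcription factor AP-1. EGR1 is a zinc finger factor of GC-rich sites, and NR4A1 and NR4A3 are orphan nuclear receptors whose activity follows their abundance. ERK kinases and the serum response factor SRF drive many of these genes, and the promoters of the group combine elements for SRF, for CREB and ATF proteins and for AP-1 itself.

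Start-site windows of 6 of the genes are shown, so that those holding such elements can be set beside JUNB, whose window held none of the motifs marked in capitals. They are RefSeq sequence on GRCh38.p14, from 250 bases before to 50 bases after the annotated start, read 5′ to 3′ on the strand of the gene. Of the 10 genes, 8 matched a window. Capitals mark the letters searched for on both strands: TGACGT (the half-site of the cAMP response element, in either orientation), TGANTCA (the AP-1 site), TGACATCA (the AP-1-like site of the JUN promoter) and the CArG box bound by SRF. The EGR1 window is chr5:138465229-138465528 on the plus strand, the FOS window chr14:75278578-75278877 on the plus strand, and the JUN window chr1:58783998-58784297 on the minus strand. The FOSL2 window is chr2:28392608-28392907, the JUNB window chr19:12791236-12791535 and the NR4A3 window chr9:99821635-99821934, all on the plus strand.
EGR1: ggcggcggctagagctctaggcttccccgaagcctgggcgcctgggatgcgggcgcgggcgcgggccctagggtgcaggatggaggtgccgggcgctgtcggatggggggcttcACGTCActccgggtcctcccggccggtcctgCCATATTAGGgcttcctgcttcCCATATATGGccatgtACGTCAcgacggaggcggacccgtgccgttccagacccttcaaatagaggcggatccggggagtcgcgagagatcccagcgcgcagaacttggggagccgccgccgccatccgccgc
FOS: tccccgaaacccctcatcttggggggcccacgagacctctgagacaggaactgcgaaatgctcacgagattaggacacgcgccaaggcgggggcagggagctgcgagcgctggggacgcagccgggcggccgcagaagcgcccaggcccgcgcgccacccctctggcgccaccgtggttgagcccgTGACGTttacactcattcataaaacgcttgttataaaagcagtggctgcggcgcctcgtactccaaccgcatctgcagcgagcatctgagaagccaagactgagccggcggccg
FOSL2: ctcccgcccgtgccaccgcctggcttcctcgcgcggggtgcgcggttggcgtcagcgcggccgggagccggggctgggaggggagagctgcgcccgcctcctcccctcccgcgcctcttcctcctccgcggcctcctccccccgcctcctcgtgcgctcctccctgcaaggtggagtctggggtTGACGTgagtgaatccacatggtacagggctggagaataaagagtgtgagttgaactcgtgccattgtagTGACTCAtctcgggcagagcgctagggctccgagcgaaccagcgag
JUN: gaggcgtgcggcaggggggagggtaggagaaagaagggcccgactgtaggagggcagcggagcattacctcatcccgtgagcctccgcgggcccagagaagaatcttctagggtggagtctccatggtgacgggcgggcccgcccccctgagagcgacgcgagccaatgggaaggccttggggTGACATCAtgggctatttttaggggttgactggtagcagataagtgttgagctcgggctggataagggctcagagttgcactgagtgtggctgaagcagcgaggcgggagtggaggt
JUNB: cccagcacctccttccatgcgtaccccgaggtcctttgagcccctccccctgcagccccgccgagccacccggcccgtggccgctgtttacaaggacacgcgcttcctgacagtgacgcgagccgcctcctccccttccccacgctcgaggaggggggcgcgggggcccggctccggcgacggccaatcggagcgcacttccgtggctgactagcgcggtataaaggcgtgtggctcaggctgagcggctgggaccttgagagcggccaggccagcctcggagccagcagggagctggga
NR4A3: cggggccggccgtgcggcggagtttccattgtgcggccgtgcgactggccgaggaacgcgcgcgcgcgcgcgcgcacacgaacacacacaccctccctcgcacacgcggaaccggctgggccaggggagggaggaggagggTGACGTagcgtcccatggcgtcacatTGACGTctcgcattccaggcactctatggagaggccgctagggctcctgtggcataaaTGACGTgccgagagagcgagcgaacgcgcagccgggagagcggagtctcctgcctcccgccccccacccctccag
Positions are those of a match's first base counted from the annotated start, which is 1, and no base is numbered 0. The EGR1 window held CArG boxes at -105 and -83 and CRE half-sites at -136 and -67. The FOS window held 1 CRE half-site at -64, and FOSL2 held a CRE half-site at -66 and the AP-1 site TGACTCA at 5. JUN held TGACATCA at -67, and NR4A3 held CRE half-sites at -109, -83 and -25. The JUNB window held none of the 4 capitalised motifs, and had TATAAA on its sense strand at -31, as the FOS window did at -33. Of the genes not shown, NR4A1 held none of the 4 in either of its windows. ATF3 held TGACATCA at -123 in 1 window, and its other window held none of the 4 and had TATAAA at -230. Among 35116 windows of the same length, a CArG box was present in 1.29%, TGACGT in 7.98%, TGANTCA in 7.71%, TGACATCA in 2.61% and sense-strand TATAAA in 7.33%. These are letter matches in annotated start windows and were not tested for binding.

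The library totals were 6104222 to 14781941 reads in the culture table, 38635418 to 62218847 in the siSCIRT table and 27989577 to 38955312 in the siEZH2 table. The mesenchymal markers VIM, CD44, EGFR, AXL, MSN and CAV1 were abundant in every library, and ESR1, PGR, CDH1 and PTPRC reached at most 24.9 normalized counts where listed. Other listed genes expected to be low were ALB, ERBB2, GATA3 and CD14. With siSCIRT 1, where each was highest, they reached 20.1, 4150, 354 and 880, so not every such gene was low. Each targeted gene was lower with its own siRNA. SCIRT (RP5-1120P11.1) held 121, 112 and 127 normalized counts with siSCIRT 1 and 159, 105 and 117 with siSCIRT 2, against 264, 287 and 256 with siNC. EZH2 held 275 and 278 with siEZH2, against 518 and 529 with siNC. EZH2 was also lower in the siSCIRT table, with 1670, 1741 and 1841 with siSCIRT 1 and 1842, 1847 and 1668 with siSCIRT 2, against 2601, 2280 and 2699 with siNC (-0.51 ± 0.07 over both siRNAs, adjusted p = 0.00014). The SCIRT row counts both strands, because the library kit does not mark strand. The share of reads from mitochondrial genes was 6.83 to 6.89% in adherent cells, 8.55 to 8.56% in 16 h spheres and 9.65 to 9.74% in 5 d spheres. In the siSCIRT table it was 5.76 to 6.11% with siSCIRT 1 and 5.54 to 6.11% with siSCIRT 2, against 6.11 to 6.6% with siNC. It moved with these groups, and its part in the results was not tested.

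In 16 h spheres 7 of the 9 genes that could be tested were called higher than in adherent cells, beside 27.4% of all genes. FOS rose most, and FOSL1 was lower. By 5 d most of the rise had gone, and 8 of the 9 were called lower than at 16 h, beside 25.5% of all genes. These 8 included FOSL1 and IER3, which had not risen at 16 h. NR4A3 had a mean under 10 normalized counts in this table and was not tested there. A normalized count is reads divided by the size factor of the library, and fold changes below are log2 differences of the normalized count plus 1, with their standard error. Calls use limma fitted over all genes of a table, with p-values adjusted by Benjamini-Hochberg and a threshold of 0.05.

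FOS, the founding AP-1 subunit and the textbook immediate early gene, had 69.4 and 87.7 normalized counts in adherent cells, 489 and 524 in spheres at 16 h and 123 and 119 at 5 d. The 3 groups did not overlap, with the 16 h libraries highest and the adherent ones lowest. FOS rose by 2.68 ± 0.16 on the log2 scale in 16 h spheres against adherent cells (adjusted p = 3.2e-17), a 6.42-fold difference. Against adherent cells it was still higher at 5 d (0.63 ± 0.16, adjusted p = 0.0011), and it fell by 2.06 between the sphere times (SE 0.16, adjusted p = 1.4e-13).

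The other FOS-family mRNAs differed from each other, with FOSL1 falling and FOSL2 highest at 16 h. FOSL1, which encodes FRA-1 and is the FOS-family subunit most associated with invasive breast cancer lines, had 4780 and 4676 normalized counts in adherent cells, 2886 and 2680 in spheres at 16 h and 2503 and 2557 at 5 d. Both sphere groups lay below the adherent libraries. Its log2 fold change against adherent cells was -0.77 ± 0.04 at 16 h (adjusted p = 1.9e-19), and at 5 d it was -0.90 ± 0.04 (adjusted p = 2e-21). The further change between 16 h and 5 d, -0.14 ± 0.04 (adjusted p = 0.0036), was 0.04 (adjusted p = 0.44) after quantile normalization and -0.08 (adjusted p = 0.13) without 16 h replicate 1. FOSL2, which encodes FRA-2, had 1127 and 1061 normalized counts in adherent cells, 1491 and 1390 in spheres at 16 h and 1101 and 1032 at 5 d. The 16 h libraries stood above the rest, and the adherent and 5 d libraries overlapped. FOSL2 rose by 0.40 ± 0.06 at 16 h against adherent cells (adjusted p = 7.8e-07) and was not called at 5 d (-0.04 ± 0.06, adjusted p = 0.63). Between the sphere times it fell by 0.43 (SE 0.06, adjusted p = 2.3e-07).

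JUN and JUNB both rose at 16 h. JUN, the main DNA-binding partner of FOS proteins, had 955 and 821 normalized counts in adherent cells, 1765 and 1577 in spheres at 16 h and 1051 and 1012 at 5 d. It was highest at 16 h, and its log2 fold change against adherent cells was 0.91 ± 0.07 (adjusted p = 3.6e-14). At 5 d the change against adherent cells was 0.22 ± 0.07 (adjusted p = 0.006), and without adherent replicate 2 it was 0.11 (adjusted p = 0.27). JUNB, a partner that is a weaker activator than JUN in many settings, had 813 and 801 normalized counts in adherent cells, 2135 and 2087 in spheres at 16 h and 965 and 931 at 5 d. The groups did not overlap, and JUNB rose by 1.39 ± 0.06 at 16 h (adjusted p = 8.1e-22), or 2.62-fold. Its 5 d rise was 0.23 ± 0.06 (adjusted p = 0.00099). JUNB shares 259 bases of annotated sequence with HOOK2 on the other strand, so part of its count may be HOOK2 reads. HOOK2 averaged 328 normalized counts over the culture libraries.

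**Figure D1:**
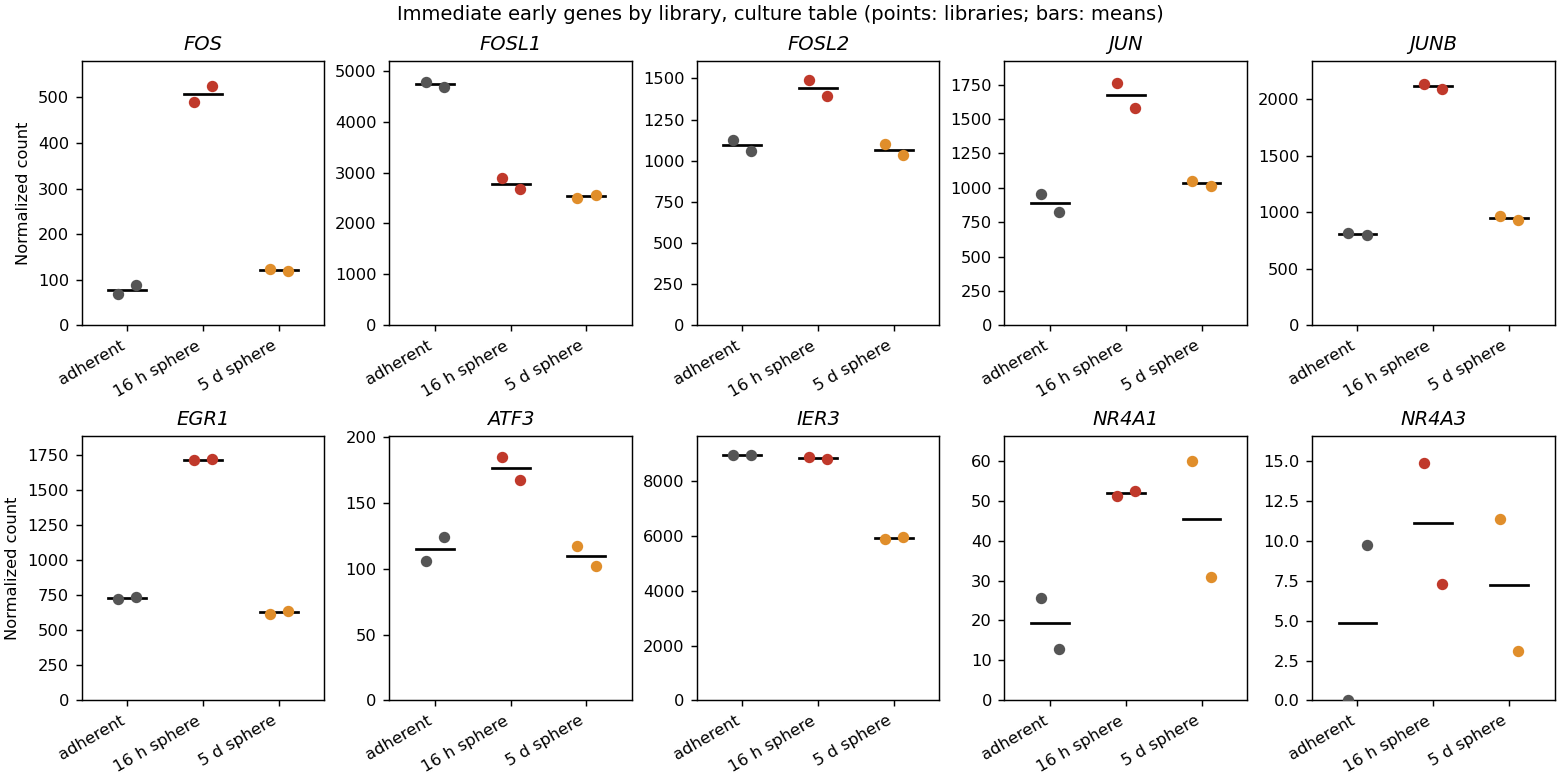
Normalized count (y axis, linear, from 0) of each of the 10 genes in adherent cells, 16 h spheres and 5 d spheres (x axis). Points are libraries, n = 2 a group, and bars are group means. FOS, FOSL2, JUN, JUNB, EGR1 and ATF3 peak at 16 h, FOSL1 is highest in adherent cells, and IER3 is lowest at 5 d.

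Set side by side per kilobase of the longest annotated transcript, the AP-1 families changed in make-up. FOSL1 gave 93.2 to 93.3% of FOS-family mRNA in adherent cells, 77.5 to 78.9% in 16 h spheres and 86.4 to 87.5% in 5 d spheres. FOS itself gave 1.05 to 1.35%, 10.3 to 11.7% and 3.14 to 3.29% in the same order. At its peak it stayed well below FOSL1 and stood just above FOSL2. FOSL2 gave 5.26 to 5.48% in adherent cells, 10.0 to 10.1% in 16 h spheres and 8.79 to 9.46% in 5 d spheres. In the JUN family JUND, the constitutive member, gave 57.0 to 60.6% in adherent cells, 36.8 to 37.2% in 16 h spheres and 48.4 to 50.2% in 5 d spheres. JUNB gave 25.8 to 26.8%, 44.4 to 45.2% and 31.9 to 33.1% in the same order, so at 16 h it was the most abundant JUN mRNA. The shares depend on the transcript length used and are descriptions of mRNA, not of protein.

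**Figure D2:**
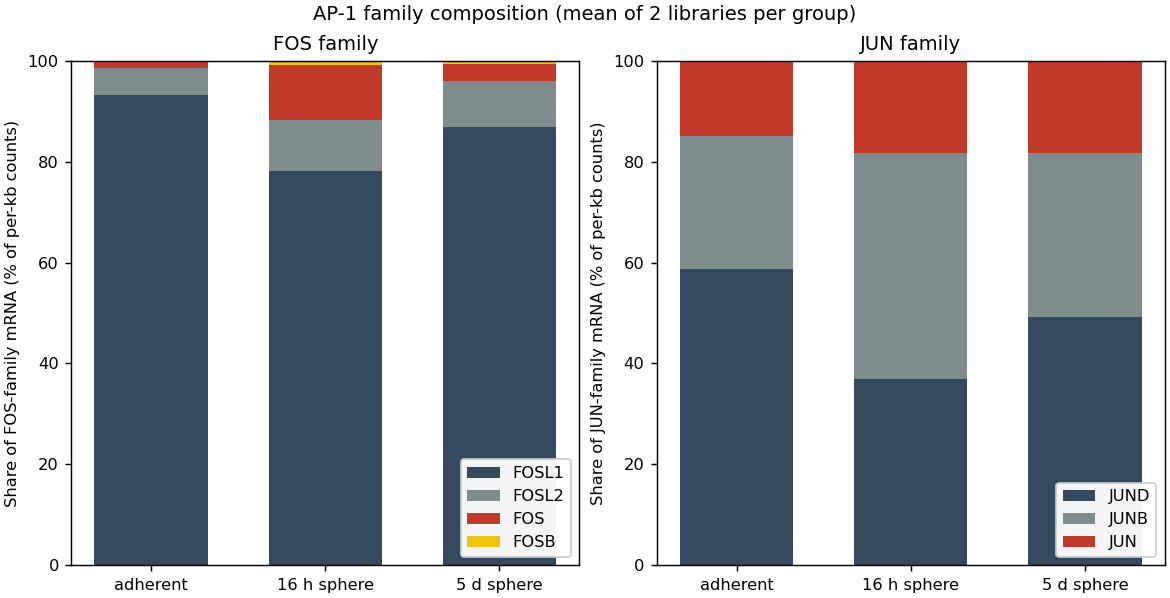
Share of FOS-family mRNA (left) and JUN-family mRNA (right) by gene, in percent of normalized counts per kilobase (y axis), in adherent cells, 16 h spheres and 5 d spheres (x axis). Bars are means of 2 libraries a group. The FOS share of its family is 1.2% in adherent cells, 11.0% at 16 h and 3.21% at 5 d, and the JUNB share of its family is 26.3%, 44.8% and 32.5%.

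EGR1, a zinc finger factor induced through the SRF sites of its promoter, followed the AP-1 pattern. It had 723 and 734 normalized counts in adherent cells, 1712 and 1722 in spheres at 16 h and 616 and 639 at 5 d. The 3 groups did not overlap, and the 5 d libraries were below the adherent ones. EGR1 rose by 1.24 ± 0.07 at 16 h against adherent cells (adjusted p = 1.1e-18) and fell by 1.45 between the sphere times (SE 0.07, adjusted p = 1.3e-20). Its log2 fold change at 5 d against adherent cells was -0.22 ± 0.07 (adjusted p = 0.0057), and -0.20 without adherent replicate 2 (adjusted p = 0.055). ATF3, a stress-induced bZIP factor that represses as a homodimer, had 106 and 124 normalized counts in adherent cells, 185 and 167 in spheres at 16 h and 117 and 102 at 5 d. It rose by 0.61 ± 0.18 at 16 h (adjusted p = 0.0043), with the 16 h libraries above all others, but the change was 0.50 (adjusted p = 0.084) without adherent replicate 1.

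IER3, an early response gene linked to survival and ERK signalling and not a transcription factor, had the highest level per kilobase of the 10 in each culture group. It had 8927 and 8924 normalized counts in adherent cells, 8857 and 8809 in spheres at 16 h and 5863 and 5967 at 5 d. The 16 h libraries were just below the adherent ones and the 5 d libraries well below both. The 16 h change was -0.01 ± 0.02 (adjusted p = 0.63), but -0.46 (adjusted p = 1.3e-16) after quantile normalization. At 5 d IER3 had fallen against adherent cells, with a log2 fold change of -0.59 ± 0.02 (adjusted p = 4.8e-22). Between the sphere times the change was -0.58 ± 0.02 (adjusted p = 1.2e-21), and -0.21 after quantile normalization. IER3 shares 359 bases with IER3-AS1 on the other strand.

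The NR4A receptors were scarce in these libraries. NR4A1 had 25.7 and 12.8 normalized counts in adherent cells, 51.2 and 52.5 in spheres at 16 h and 60 and 30.8 at 5 d. Both sphere groups lay above the adherent libraries, and the 5 d libraries spanned the 16 h ones. It rose by 1.46 ± 0.36 at 16 h against adherent cells (adjusted p = 0.00075), and the 5 d rise was 1.20 ± 0.36 (adjusted p = 0.0049). The 5 d change was 0.73 without adherent replicate 2 (adjusted p = 0.15) and 0.73 without 5 d replicate 1 (adjusted p = 0.14). NR4A1 shares 403 bases with AC025259.3 on the other strand. NR4A3 had 0 and 9.74 normalized counts in adherent cells, 14.9 and 7.33 in spheres at 16 h and 11.4 and 3.08 at 5 d, so its groups overlapped. A count of 0 in the first adherent library allows up to 3 reads, or 2.26 normalized counts, for counting error only.

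**Figure D3:**
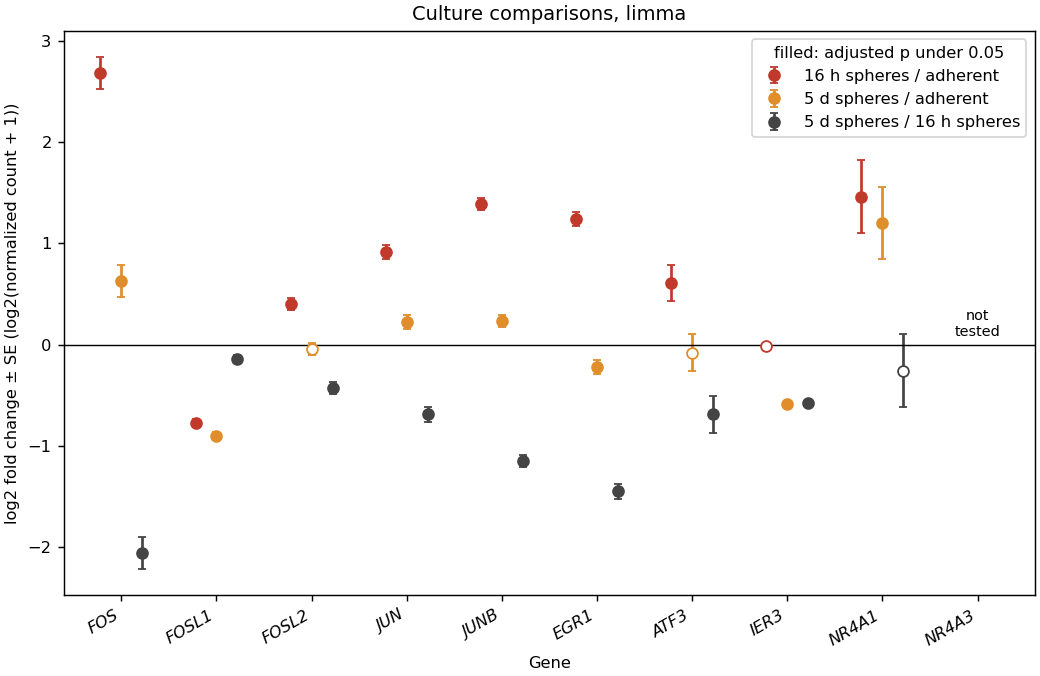
Log2 fold change ± SE (y axis) of each gene (x axis) for 16 h spheres against adherent cells, 5 d spheres against adherent cells and 5 d spheres against 16 h spheres. Filled points have an adjusted p under 0.05 and NR4A3 was not tested. The 16 h points of FOS, JUN, JUNB, EGR1 and ATF3 lie above 0, and all 9 points for 5 d against 16 h lie below it.

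Counted together, at 16 h 8 of the 9 tested genes were called against adherent cells, 7 higher and 1 lower. Over all 13789 genes tested, 53.9% were called, 27.4% higher and 26.5% lower, so a call by itself was common in this comparison. The median log2 fold change was 0.91 over the 9 genes and -0.01 over all genes, and 4 of the 9 (FOS, JUNB, EGR1 and NR4A1) were called with at least a 2-fold rise. At 5 d against adherent cells 7 of the 9 were called, 4 higher and 3 lower, beside 55.2% of all genes called, 26.3% higher and 28.9% lower. The medians were then close, at -0.04 over the 9 and -0.02 over all genes, and the members' count was not tested against the background. Without adherent replicate 2 it was 4 of 9. Between 5 d and 16 h spheres 8 of the 9 were called and all 8 were lower, beside 48.3% of all genes called and 25.5% called lower. The medians were -0.69 over the 9 and 0.0 over all genes. The comparisons against adherent cells share the adherent libraries, and those involving 16 h spheres share the 16 h libraries.

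Other genes of the early response were read from lists of known genes. The lists were chosen with earlier results of these data known, so their counts are descriptions and not independent support. Of 33 other immediate early genes tested, 19 rose and 7 fell in 16 h spheres against adherent cells, with a median log2 fold change of 0.98. Among all genes tested, 27.4% were called higher and 26.5% lower in that comparison. RHOB, a stress-induced GTPase, rose by 4.05 ± 0.07 (adjusted p = 4.4e-35). DUSP1, the phosphatase that switches off MAP kinases, rose by 2.91 ± 0.06 (adjusted p = 4.5e-32), with 623 and 712 normalized counts in adherent cells, 5091 and 4905 in spheres at 16 h and 1596 and 1480 at 5 d. MCL1, a BCL2-family survival gene, rose by 2.82 ± 0.03 (adjusted p = 1.1e-43), and ZFP36L1, an RNA-decay factor of AU-rich transcripts, rose by 1.22 ± 0.03 (adjusted p = 9e-30). Against 16 h spheres, 5 d spheres had 24 of the 33 lower and 5 higher (median -0.78), beside 48.3% of all genes called and 25.5% called lower. At 5 d against adherent cells 14 rose and 14 fell (median 0.09), beside 26.3% of all genes called higher and 28.9% lower. CYR61, a matrix protein under YAP and SRF control, changed by -1.92 ± 0.04 (adjusted p = 1.5e-25).

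Of 11 other AP-1 subunits and bZIP partners, 5 rose and 1 fell at 16 h (median 0.12). Among all genes tested, 53.9% were called in that comparison, 27.4% higher and 26.5% lower, so the number of calls in this list was near the background. BATF, a bZIP factor best known in lymphocytes, had 44.5 and 21.9 normalized counts in adherent cells, 297 and 358 in spheres at 16 h and 169 and 183 at 5 d, and rose at 16 h (3.34 ± 0.22, adjusted p = 1.4e-14). JDP2, a repressor that pairs with JUN, fell (-1.76 ± 0.17, adjusted p = 6e-11). Of the 4 EGR, NR4A and corepressor genes tested, 3 rose at 16 h. NAB2, the EGR1-induced corepressor of EGR proteins, rose by 1.41 ± 0.14 (adjusted p = 7.8e-11) and NAB1 by 1.00 ± 0.13 (adjusted p = 1.4e-08). EGR3 had 0 and 0.609 normalized counts in adherent cells, 28.8 and 33 in spheres at 16 h and 27.9 and 40.1 at 5 d, and was called at both sphere times (adjusted p = 9e-09 and 5.9e-09). Its 16 h and 5 d libraries overlapped, unlike those of EGR1. No fold is given for EGR3 because the adherent libraries are below the 3-read limit.

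Of the 6 SRF and cofactor genes tested, ELK3, ELK4 and ELK1, partners of SRF at CArG boxes, rose at 16 h by 1.20 ± 0.04, 0.61 ± 0.08 and 0.27 ± 0.07 (adjusted p = 4.2e-24, 3.7e-08 and 0.0017). Of 18 MAP kinase cascade genes 3 rose and 7 fell (median -0.03), beside 27.4% of all genes called higher and 26.5% lower at 16 h. The number of calls in this list was near the 53.9% over all genes. MAP2K3, a p38 activator, changed by -1.10 ± 0.09 (adjusted p = 8.8e-13) and BRAF by 1.24 ± 0.13 (adjusted p = 3.3e-10). Of 15 genes known as AP-1 targets 9 rose and 5 fell at 16 h (median 1.28). TIMP1, a metalloproteinase inhibitor, rose by 3.70 ± 0.03 (adjusted p = 1.4e-47). CCND1, cyclin D1, fell (-0.76 ± 0.03, adjusted p = 2e-23). At 5 d against 16 h 9 of the 15 fell and 3 rose, beside 48.3% of all genes called and 25.5% called lower. MMP1, interstitial collagenase, changed by -2.57 ± 0.06 (adjusted p = 2e-29).

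In the siSCIRT knockdown NR4A3 was the 1 gene of the 10 called for each siRNA. NR4A3 had 235, 229 and 245 normalized counts with siSCIRT 1 and 226, 185 and 199 with siSCIRT 2, against 105, 142 and 102 with siNC. Every library of either siRNA lay above every siNC library. NR4A3 rose by 1.03 ± 0.15 with siSCIRT 1 (adjusted p = 0.00051), or 2.05-fold, and by 0.81 ± 0.15 with siSCIRT 2 (adjusted p = 0.0035). Over both siRNAs the change was 0.92 ± 0.13 (adjusted p = 0.00026). The counts were low, from 116 to 240 reads a library across the 3 groups. With all replicate 1 libraries left out, chosen after seeing the data, siSCIRT 2 gave 0.67 (adjusted p = 0.06). The related receptor NR4A1 had 512, 603 and 544 normalized counts with siSCIRT 1 and 596, 529 and 583 with siSCIRT 2, against 580, 529 and 615 with siNC. These groups overlapped, and the change over both siRNAs was -0.03 ± 0.09 (adjusted p = 0.85).

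FOSL2 was the other gene near the threshold. It had 11586, 11545 and 11806 normalized counts with siSCIRT 1 and 11529, 11235 and 11679 with siSCIRT 2, against 12871, 12958 and 12862 with siNC. Every siSCIRT library lay below every siNC library, by a small margin. Over both siRNAs the change was -0.16 ± 0.05 (adjusted p = 0.041), and it was not called with siSCIRT 1 (-0.15 ± 0.06, adjusted p = 0.12) or siSCIRT 2 (-0.17 ± 0.06, adjusted p = 0.075) alone by limma. DESeq2 called FOSL2 for siSCIRT 1 (-0.14, adjusted p = 0.038) and for siSCIRT 2 (-0.17, adjusted p = 0.014). Leaving out any single library of the table kept the mean of both at -0.16 to -0.15, with an adjusted p between 0.051 and 0.13.

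The rest of the group overlapped between siRNA and control. FOS had 1189, 1132 and 1101 normalized counts with siSCIRT 1 and 1264, 1036 and 1142 with siSCIRT 2, against 1298, 1049 and 1041 with siNC, and its change over both siRNAs was 0.02 ± 0.09 (adjusted p = 0.89). JUN had 14228, 10809 and 12318 with siSCIRT 1 and 14181, 11943 and 13183 with siSCIRT 2, against 12053, 12266 and 9411 with siNC (0.19 ± 0.10, adjusted p = 0.23). EGR1 had 3081, 3231 and 3481 with siSCIRT 1 and 3290, 3181 and 3390 with siSCIRT 2, against 3347, 3463 and 2814 with siNC (0.03 ± 0.07, adjusted p = 0.8). The changes over both siRNAs were -0.06 ± 0.09 for FOSL1, 0.16 ± 0.12 for JUNB, 0.05 ± 0.08 for ATF3 and -0.03 ± 0.23 for IER3 (adjusted p = 0.69, 0.45, 0.73 and 0.96). IER3 had the widest error of the 10. Replicate 1 was the highest library of all 3 groups for IER3, ATF3, FOS, JUNB and FOSL1. That is 5 of the 10 genes, or 50%, against 14.6% of the 16607 genes tested, and its part in the errors was not tested.

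Counted together, siSCIRT 1 called 1 of the 10 (higher), beside 10.2% of all genes called and 4.63% called higher. siSCIRT 2 called 1 of the 10 (higher), beside 9.54% and 4.49%. The mean of both called 2 of the 10, 1 higher and 1 lower, beside 14.4% of all genes, 6.82% higher and 7.58% lower. These shares of the 10 were close to the background shares. The median log2 fold change over the 10 was 0.03 for the mean of both siRNAs, against 0.01 over all genes. Between siSCIRT 1 and siSCIRT 2 limma called 0 of the 10, with 0 at an unadjusted p under 0.05 and 0 by edgeR and DESeq2, beside 0% of all genes by limma and 6 genes by DESeq2. The difference for NR4A3, siSCIRT 1 minus siSCIRT 2, was 0.22 ± 0.15 (adjusted p = 1). All these comparisons against siNC share the 3 siNC libraries.

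**Figure D4:**
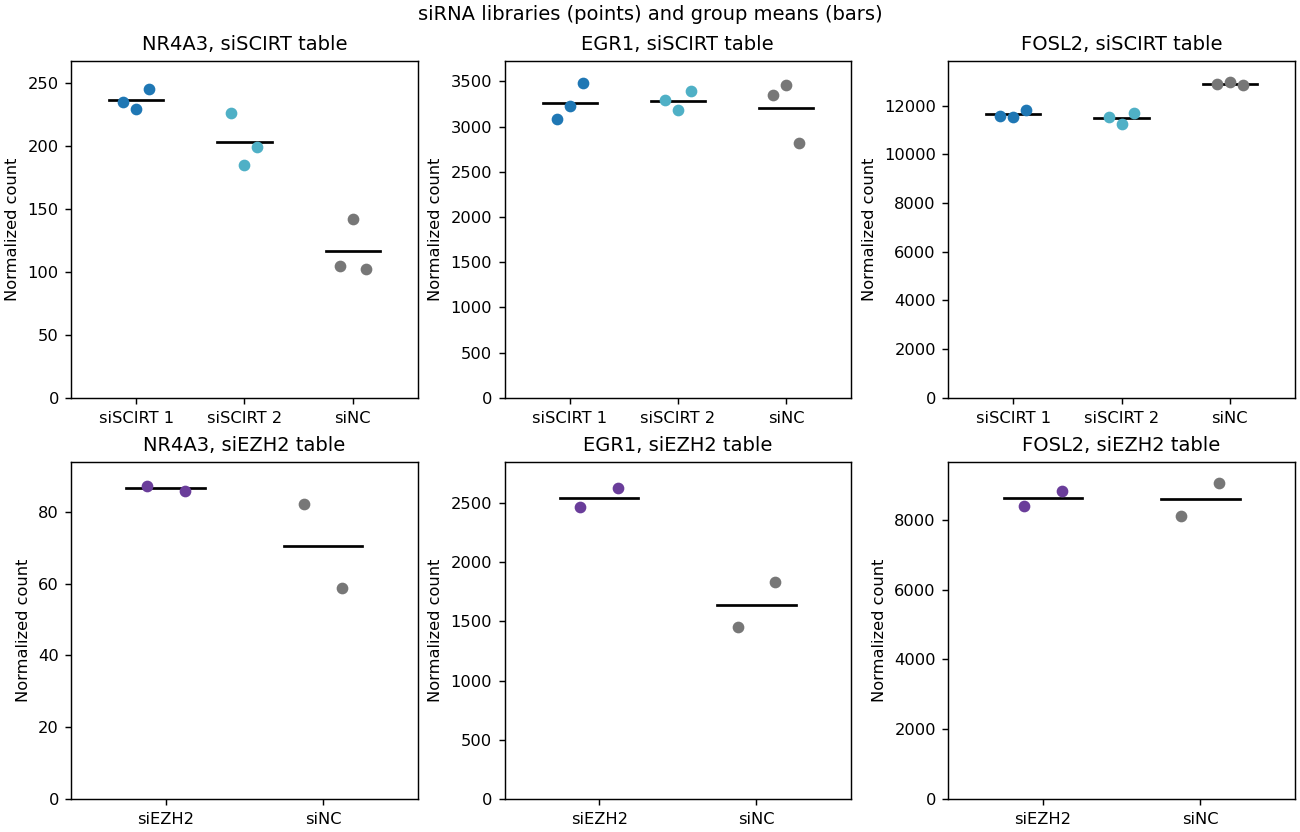
Normalized count (y axis, linear, from 0) of NR4A3, EGR1 and FOSL2 with siSCIRT 1, siSCIRT 2 and siNC (top row) and with siEZH2 and siNC (bottom row). Points are libraries and bars are group means. NR4A3 lies above siNC in all 6 siSCIRT libraries, and EGR1 lies above siNC in both siEZH2 libraries.

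Among related genes in the siSCIRT table, 4 of 34 other immediate early genes rose and 7 fell for the mean of both siRNAs (median 0.03). The shares over all genes were 14.4% called, 6.82% higher and 7.58% lower. CTGF and CYR61, secreted matrix proteins and classic YAP targets, fell by 0.75 and 0.73 (SE 0.06 each, adjusted p = 2.2e-06 and 2.6e-06). HBEGF, an EGF receptor ligand, fell by 0.45 (SE 0.07, adjusted p = 0.00034), and PLK3 rose by 0.34 ± 0.06 (adjusted p = 0.0021). ATF2, a CRE-binding partner of JUN, was the 1 gene called of 12 other AP-1 and bZIP genes (0.43 ± 0.07, adjusted p = 0.00074). NAB2 was the 1 called of 6 EGR, NR4A and corepressor genes (0.36 ± 0.08, adjusted p = 0.006). MAPK3, which encodes ERK1, had 3268, 2902 and 2758 normalized counts with siSCIRT 1 and 3216, 2524 and 2624 with siSCIRT 2, against 1873, 1795 and 1587 with siNC. It rose by 0.71 ± 0.08 (adjusted p = 5.5e-05), and MAP2K3 was the 1 gene that fell of the 19 in its cascade (-0.34 ± 0.06, adjusted p = 0.00084). Of 20 AP-1 targets 3 rose and 3 fell, with IL6 at -0.52 ± 0.09 (adjusted p = 0.002) and CCND1 at -0.36 ± 0.06 (adjusted p = 0.0012).

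In the siEZH2 knockdown EGR1 was the gene called of the 10. EGR1 had 2462 and 2625 normalized counts with siEZH2, against 1450 and 1830 with siNC. The groups did not overlap, but neither did those of FOS, FOSL1, ATF3, IER3, NR4A1 and NR4A3, which were not called in this table. The share of all genes without overlap was not counted. With 2 libraries a group, such separation therefore does not set any of these genes apart. EGR1 rose by 0.64 ± 0.12 (adjusted p = 1.1e-05), or 1.56-fold. Without siNC replicate 1, the lower control, the change was 0.47 (adjusted p = 0.1).

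The AP-1 genes and the NR4A receptors were not called. FOS had 767 and 705 normalized counts with siEZH2, against 777 and 904 with siNC (-0.19 ± 0.13, adjusted p = 0.46). FOSL1 had 6064 and 6455 with siEZH2, against 4481 and 5843 with siNC (0.29 ± 0.12, adjusted p = 0.13), and without siNC replicate 2 it was called at 0.48 (adjusted p = 0.044). JUN had 12521 and 14962 with siEZH2, against 12569 and 11527 with siNC (0.19 ± 0.12, adjusted p = 0.44). FOSL2 and JUNB changed by 0.01 ± 0.12 and 0.05 ± 0.12 (adjusted p = 0.99 and 0.88), with overlapping groups. ATF3 had 453 and 474 with siEZH2, against 358 and 409 with siNC (0.28 ± 0.14, adjusted p = 0.28). IER3 had 42922 and 46124 with siEZH2, against 35431 and 34378 with siNC (0.35 ± 0.13, adjusted p = 0.084). IER3 was called after quantile normalization (0.32, adjusted p = 0.036) and by DESeq2 (0.34, adjusted p = 0.023). NR4A1 had 162 and 166 with siEZH2, against 182 and 222 with siNC (-0.29 ± 0.17, adjusted p = 0.36). NR4A3 had 87.1 and 85.9 with siEZH2, against 82.2 and 58.7 with siNC (0.31 ± 0.22, adjusted p = 0.47). In all, 1 of the 10 was called, beside 6.84% of all genes called and 3.9% called higher, and the medians were 0.23 over the 10 and 0.01 over all genes.

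**Figure D5:**
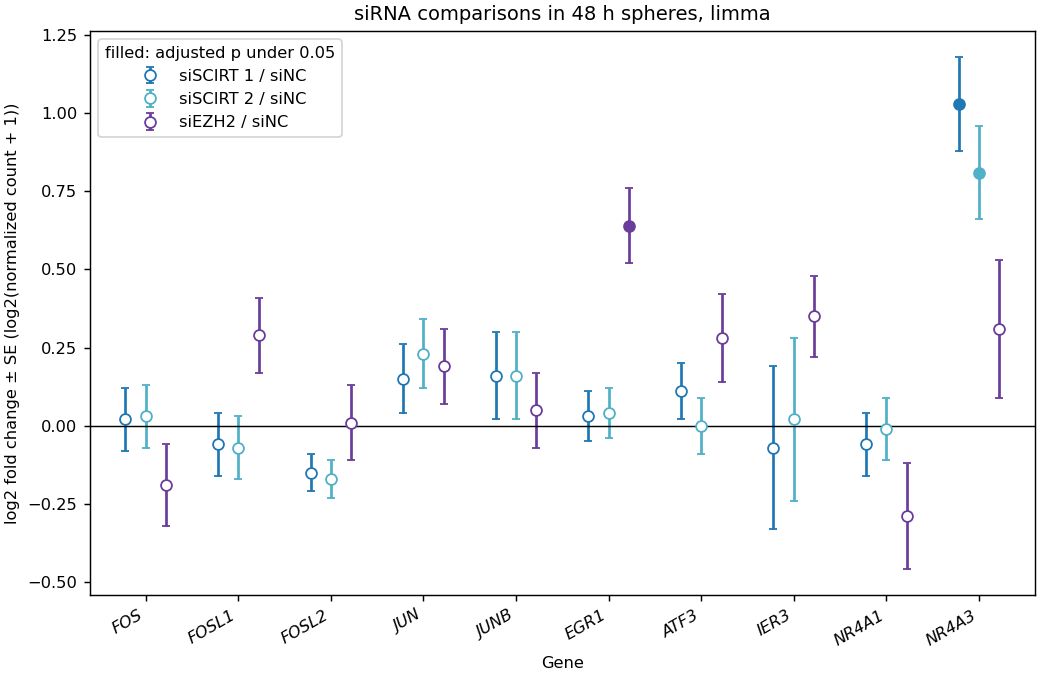
Log2 fold change ± SE (y axis) of the 10 genes (x axis) for siSCIRT 1 and siSCIRT 2 against their siNC and for siEZH2 against its own siNC. Filled points have an adjusted p under 0.05. They are NR4A3 for both siSCIRT and EGR1 for siEZH2, and FOSL2 is not filled for either siSCIRT alone.

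Of 34 other immediate early genes, 12 rose with siEZH2 and 0 fell by limma, with 18 higher and 1 lower at an unadjusted p under 0.05 (median 0.26). Limma called 6.84% of all genes, with 3.9% of all genes called higher. DESeq2 called 11 higher and 1 lower, and edgeR 12 and 0. PTGS2, the inducible cyclooxygenase, had 3916 and 3425 normalized counts with siEZH2, against 1819 and 2022 with siNC, and rose by 0.93 ± 0.12 (adjusted p = 2.3e-12). DUSP1 rose by 0.63 ± 0.12 (adjusted p = 1.2e-05), CSRNP1 by 0.63 ± 0.12 (adjusted p = 2.5e-05) and ETS2, an ETS factor downstream of ERK, by 0.64 ± 0.13 (adjusted p = 5.8e-05). Of 18 AP-1 targets 4 rose by limma, edgeR and DESeq2 and 0 fell, with 8 higher and 2 lower at an unadjusted p under 0.05. They were IL8, a neutrophil chemokine (1.21 ± 0.12, adjusted p = 7.3e-20), the stromelysins MMP10 (1.20 ± 0.15, adjusted p = 1.4e-12) and MMP3 (1.81 ± 0.25, adjusted p = 5.3e-11), and CCND1 (0.43 ± 0.13, adjusted p = 0.016). NR4A2, the other NR4A receptor, rose by 0.37 ± 0.12 by limma (adjusted p = 0.045), and edgeR and DESeq2 called 0 of the 6 genes of its list. Limma, edgeR and DESeq2 called 0 of the 12 other AP-1 and bZIP genes and 0 of the 19 MAP kinase cascade genes. At an unadjusted p under 0.05 limma had 1 higher and 1 lower of the 12, and 1 higher and 2 lower of the 19.

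The responses to siEZH2 and to siSCIRT were compared in 1 fit over the 13 siRNA libraries, each against the siNC of its own table. Knockdown and table go together, so an effect of the siRNA target and one of the experiment cannot be told apart. For EGR1 the siEZH2 response exceeded the siSCIRT response by 0.61 ± 0.14 (adjusted p = 0.0038), and by 0.44 (adjusted p = 0.058) without siEZH2-table siNC replicate 1. For NR4A3 the difference was -0.61 ± 0.25 (adjusted p = 0.1), so the larger siSCIRT response of NR4A3 was not called as different. It was called without siSCIRT-table siNC replicate 2 (-0.76, adjusted p = 0.035) and without siEZH2-table siNC replicate 2 (-0.85, adjusted p = 0.049). EGR1 was the 1 gene called of the 10, beside 15% of all genes called and 8.51% called higher. Of 34 other immediate early genes the difference was called higher for 10 and lower for 2, led by CYR61 (1.24 ± 0.13, adjusted p = 1.2e-06) and CTGF (1.13 ± 0.12, adjusted p = 1.2e-06).

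Each gene was set beside the gene whose log2 fold changes were closest over 4 comparisons (16 h and 5 d spheres against adherent cells, the mean siSCIRT response and the siEZH2 response), by root-mean-square difference, among 8551 genes averaging at least 100 normalized counts in every table. FOSL2 and ATL3 differed by 0.03, ATF3 and IL13RA1 by 0.04, and IER3 and CDC34 by 0.04. JUN and GALK1 differed by 0.05, JUNB and ITPKC by 0.05, and FOSL1 and IDS by 0.06. EGR1 was farther from its nearest gene, HIST1H2BK, at 0.14, and FOS had the most distant match of those tested, CYP1B1 at 0.17. CYP1B1 changed by 2.47 at 16 h and 0.85 at 5 d, against 2.68 and 0.63 for FOS. For NR4A1 the nearest was ETFB at 0.09, and NR4A3 has no such partner because it was not tested in the culture table.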

How the data were processed

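RNA-seq libraries were made from total RNA (TRI Reagent) with an unstranded kit (TruSeq RNA v2), per the labels' protocols. CASAVA 1.4, TopHat2, Partek and the build hg19 are named in the submitters' processing notes, without roles. The authors deposited the culture and siSCIRT tables as variance-stabilised log2 values of normalized counts. For siEZH2 the authors deposited a linear signal, gene counts divided by a size factor for each library. The log2 transform was inverted to give normalized counts, and dividing by each library's step gave whole reads for 100% of values (tolerance 0.05 reads). The 3 tables were normalized separately.

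Genes with a mean of at least 10 normalized counts were tested on log2(normalized count + 1) with limma 3.58.1 (eBayes with trend and robust, two-sided) in R 4.3.3. A gene was called at an adjusted p under 0.05. Alternatives were a pseudocount of 8, no filter, quantile normalization, the variance-stabilised values as deposited, the replicate number as a block, each library left out, and edgeR 4.0.16 and DESeq2 1.42.0 on the recovered reads. The fits were tested on simulated data. Named genes are the 10 members, up to 4 genes a list and comparison by smallest adjusted p, the siRNA targets and the gene nearest each member. Members and lists were chosen with earlier results of these data known. In the siSCIRT table, the columns without an siRNA number were taken as siSCIRT 1, since the others carry the number of siSCIRT 2. The values of 1 gene that the rule for named genes picks are not reported here.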

Additional observations from a re-analysis of the deposited data

Results flagged for a closer look

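The EGR1 responses to the 2 knockdowns differed. EGR1 rose by 0.64 ± 0.12 on the log2 scale with siEZH2 against its siNC, and changed by 0.03 ± 0.07 over both siSCIRT siRNAs against theirs. The difference of the responses, siEZH2 minus siSCIRT, was 0.61 ± 0.14 and was itself tested (limma, adjusted p = 0.0038). EGR1 was higher than every siNC library of its table in 2 of 2 siEZH2 libraries. The same held for FOSL1, ATF3, IER3 and NR4A3, which were not called for siEZH2, and the share of all genes was not counted. Without replicate 1 of the siEZH2-table siNC the difference was 0.44 (adjusted p = 0.058). The knockdowns come from separate tables, so target and experiment cannot be told apart. IER3 took 998 to 1081 RPM in the siNC libraries of the siEZH2 table and 45.8 to 75.0 RPM in those of the siSCIRT table, and EZH2 was lower in both knockdowns (-0.92 with siEZH2 and -0.51 over both siSCIRT siRNAs). The part of these in the difference was not tested.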

How the results depend on the processing

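Of 1301 values of the 10 genes under the alternatives, 1267 kept their direction and side of the threshold or were uncalled in both, 21 lost a call, 12 gained one and 1 reversed. Among uncalled values 52 changed sign, none with a main size above 0.26. Quantile normalization reversed FOSL1 for 5 d against 16 h spheres (0.04), HMGA1 in that comparison (0.01) and at 16 h against adherent cells (-0.78), and CD44 at 16 h against adherent cells (-0.04). The cause was not tested. Members called moved to 2 for siSCIRT 1 and for siSCIRT 2 with DESeq2, to 0 for siSCIRT 2 with all replicate 1 libraries left out, and to 1 for the mean of both with no filter, with quantile normalization and with those libraries left out. For siEZH2 they moved to 2 with quantile normalization and with DESeq2.

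Leaving out 1 library at a time, members called ranged from 4 to 7 for 5 d against adherent cells (lowest without adherent replicate 2), were 1 in every case for the mean of both siSCIRT, and ranged from 0 to 2 for siEZH2 and from 0 to 2 for the difference of responses, lowest for each without siEZH2-table siNC replicate 1. Over all genes the calls ranged from 887 to 1829 for siSCIRT 1, from 769 to 1815 for siSCIRT 2 and from 1242 to 2582 for their mean, each lowest without siNC replicate 3. They ranged from 0 to 1 between the siSCIRT siRNAs, from 342 to 1040 for siEZH2 and from 1489 to 2556 for the difference, the last 2 lowest without siEZH2-table siNC replicate 1. Other counts over all genes were 937 for siSCIRT 2 with all replicate 1 libraries left out, 2 between the siSCIRT siRNAs with no filter and 6 with DESeq2, and 678 for siEZH2 with DESeq2. A group left with 1 library was assumed to vary like the others.

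Whether replicate numbers pair the libraries was checked from deviations from group means, correlated across genes. Of the 9 same-numbered pairs of the siSCIRT table, 7 lay above 0.1, at 0.539 to 0.575 for replicate 1, 0.134 to 0.263 for replicate 2 and 0.216 for replicate 3 of the siSCIRT siRNAs. Replicate 3 of siNC was at -0.004 and 0.026 with the siRNAs, so the numbers were not taken as pairs. Not every library correlated best with its own number. Same-numbered pairs were at -0.02 to -0.004 in the culture table and -0.014 in the siEZH2 table. With the replicate block, members called were 2 for siSCIRT 1, 2 for siSCIRT 2 and 2 for the difference of responses. Calls over all genes with the block were 3144, 3110 and 4030 for siSCIRT 1, siSCIRT 2 and their mean, 7 between the siRNAs, 532 for siEZH2 and 3575 for the difference. With the block FOSL2 was called for each siSCIRT (-0.15 and -0.17, adjusted p = 0.037 and 0.018), JUNB for their mean (0.16, adjusted p = 0.036) and FOSL1 for the difference (0.35, adjusted p = 0.02). NR4A3 in the culture table rests on 0 to 16 reads a library and was not tested there.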

Other observations

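IER3 stood at different levels in the siNC libraries of the 2 siRNA tables. It took 998 to 1081 RPM (reads scaled to library total) in the siNC libraries of the siEZH2 table and 45.8 to 75.0 in those of the siSCIRT table. In the culture table it took 987 to 992 in adherent cells, 819 to 824 in 16 h spheres and 631 to 634 in 5 d spheres. The tables were made and normalized separately, so this sets levels side by side with no test. Within the siSCIRT table the siSCIRT 1 and siSCIRT 2 libraries, at 41.6 to 70.8 and 48.8 to 74.0 RPM, overlapped siNC.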
